A study of Mus musculus with 12 samples.

Results

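A set of 10 genes of the integrated stress response and of serine and one-carbon metabolism is described here, listed by symbol and taken from the 18255 genes that the deposited tables name in at least 1 library. They are Atf4 (gene identifier 11911), Ddit3 (13198), Trib3 (228775), Chac1 (69065), Asns (27053), Phgdh (236539), Psat1 (107272), Psph (100678), Shmt2 (108037) and Mthfd2 (17768). All 10 were listed in all 12 libraries and passed the filter on low counts. RNA came from 3T3-L1 cells, mouse preadipocytes that turn into fat cells under adipogenic hormones, in 4 groups of 3 libraries. The groups were control cells (NC) and cells overexpressing LIGHT, the cytokine of the tumour necrosis factor family encoded by Tnfsf14, each taken undifferentiated (Undiff) and after differentiation into beige adipocytes (Diff). All cells were grown in high-glucose DMEM with fetal bovine serum and antibiotics. The differentiated cells of both lines had 48 h of a cocktail of dexamethasone, IBMX, rosiglitazone, triiodothyronine, indomethacin and insulin, then a maintenance medium with rosiglitazone, triiodothyronine and insulin, so that all these agents are part of every comparison between stages. The labels give neither the vector and the promoter behind the overexpression, nor the day of harvest, nor whether a group's 3 libraries were separate cultures. The p-values therefore measure the spread between these libraries, which may be technical.

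ATF4 is a transcription factor whose mRNA is translated when eIF2, a translation initiation factor, is phosphorylated by one of several kinases that sense amino acid shortage, unfolded proteins in the endoplasmic reticulum, double-stranded RNA or heme shortage. With partners of the C/EBP family it activates genes of amino acid synthesis and transport, of aminoacyl-tRNA synthesis and of the response to stress. Among its targets are the enzymes that make serine from a glycolytic intermediate (Phgdh, Psat1, Psph) and those that pass the one-carbon unit of serine to folate in mitochondria (Shmt2, Mthfd2). Since ATF4 is controlled largely through translation, its mRNA level is not a measure of its protein.

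ATF4 and its partners bind a composite sequence, the C/EBP-ATF response element, searched for here as TGATGNAA on either strand of the promoters of RefSeq (build GRCm38.p6). A promoter is taken as 300 bases, from 250 before to 50 after the annotated start. All 10 genes had an entry, with 11 promoters, since Psat1 has 2. The element was in a promoter of 3 of the 10 genes, and in 1304 of all 32851 promoters (3.97%). The stretches of these 3 genes are shown because they are the ones of the 10 that hold it, and the 3 are followed one by one below. Capitals mark the element, and each stretch is written 5′ to 3′ on the strand of its gene.
Asns, chr6:7693210-7693269, minus strand: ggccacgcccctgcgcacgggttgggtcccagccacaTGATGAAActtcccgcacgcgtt
Chac1, chr2:119351023-119351082, plus strand: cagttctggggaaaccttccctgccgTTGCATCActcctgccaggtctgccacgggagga
Trib3, chr2:152344028-152344057, minus strand: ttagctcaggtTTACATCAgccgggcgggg
In Asns the element read in the direction of the gene and lay at bases -23 to -16 from the start. In Chac1 it read on the opposite strand, at bases -193 to -186, and in Trib3 also on the opposite strand, at bases 15 to 22 after the start. The ER stress element (CCAAT, any 9 bases, then CCACG, on either strand), a site of the unfolded protein response, was in 0 of the 10 genes' promoters and in 0.119% of all promoters, so that no overlap between the 2 elements arose among these genes. A match is a description of the letters, and a missing match says only that they are not in this window.

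The libraries held 16334079 to 19686675 expected counts each, and 3 counts were worth 0.152 to 0.184 CPM, the unit in which counts are scaled by library size. Tnfsf14, the overexpressed gene, went against the label in 2 libraries: the library labelled NC-Diff 1 had 113 expected counts of it and the library labelled LIGHT-Diff 1 had 0. The other control libraries had 0 or 1 count, and the other LIGHT libraries had 38, 53 and 58 before and 148 and 122 after differentiation. On the second principal component of all genes (9.1% of the variance), NC-Diff 1 (-22.6) lay beside LIGHT-Diff 2 and 3 (-22.3 and -19.4), and LIGHT-Diff 1 (21.2) lay beside NC-Diff 2 and 3 (21.9 and 19.4). Each comparison was therefore run on the 12 libraries as labelled and again on the 10 that remain without NC-Diff 1 and LIGHT-Diff 1, which leaves 2 differentiated libraries a group. No library was moved to another group.

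On the scale that corrects for gene length (FPKM), the undifferentiated control cells ranked the genes as follows. Phgdh, the first enzyme of serine synthesis, had 376 ± 15.2 FPKM (SD, n = 3), Psat1, its second enzyme, 373 ± 13.3, and Atf4 itself 349 ± 15.9. Neighbours among these 3 did not differ beyond their spread. Asns, which makes asparagine, had 237 ± 9.39 FPKM and Shmt2, the mitochondrial serine hydroxymethyltransferase, 222 ± 6.59, whose means ± SD just met. Ddit3, which encodes the stress factor CHOP, followed with 134 ± 2.87 FPKM, then Mthfd2, the mitochondrial methylenetetrahydrofolate dehydrogenase, with 113 ± 5.95 and Trib3, a pseudokinase that restrains ATF4 and CHOP, with 97.1 ± 4.89. Psph, the last enzyme of serine synthesis, had 79.8 ± 1.72 FPKM and Chac1, which degrades glutathione, 76.9 ± 3.26. The last 2 lay within their spread. In the differentiated groups as labelled Atf4 came first, with 369 ± 62.1 FPKM in control and 342 ± 46.5 in LIGHT cells, and Psat1 second, with 286 ± 45.2 and 269 ± 35.1. Psph was last, with 47.7 ± 8.59 and 46.4 ± 5.61 FPKM. The means ± SD of Atf4 and Psat1 overlapped in both lines as labelled. Without NC-Diff 1 and LIGHT-Diff 1 Atf4 had 404 ± 16.9 FPKM (SD, n = 2) in control and 315 ± 0.0636 in LIGHT cells. Psat1 then had 312 ± 10.6 and 249 ± 8.39 FPKM, and Psph 52.4 ± 3.74 and 43.1 ± 0.799.

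**Figure D1:**
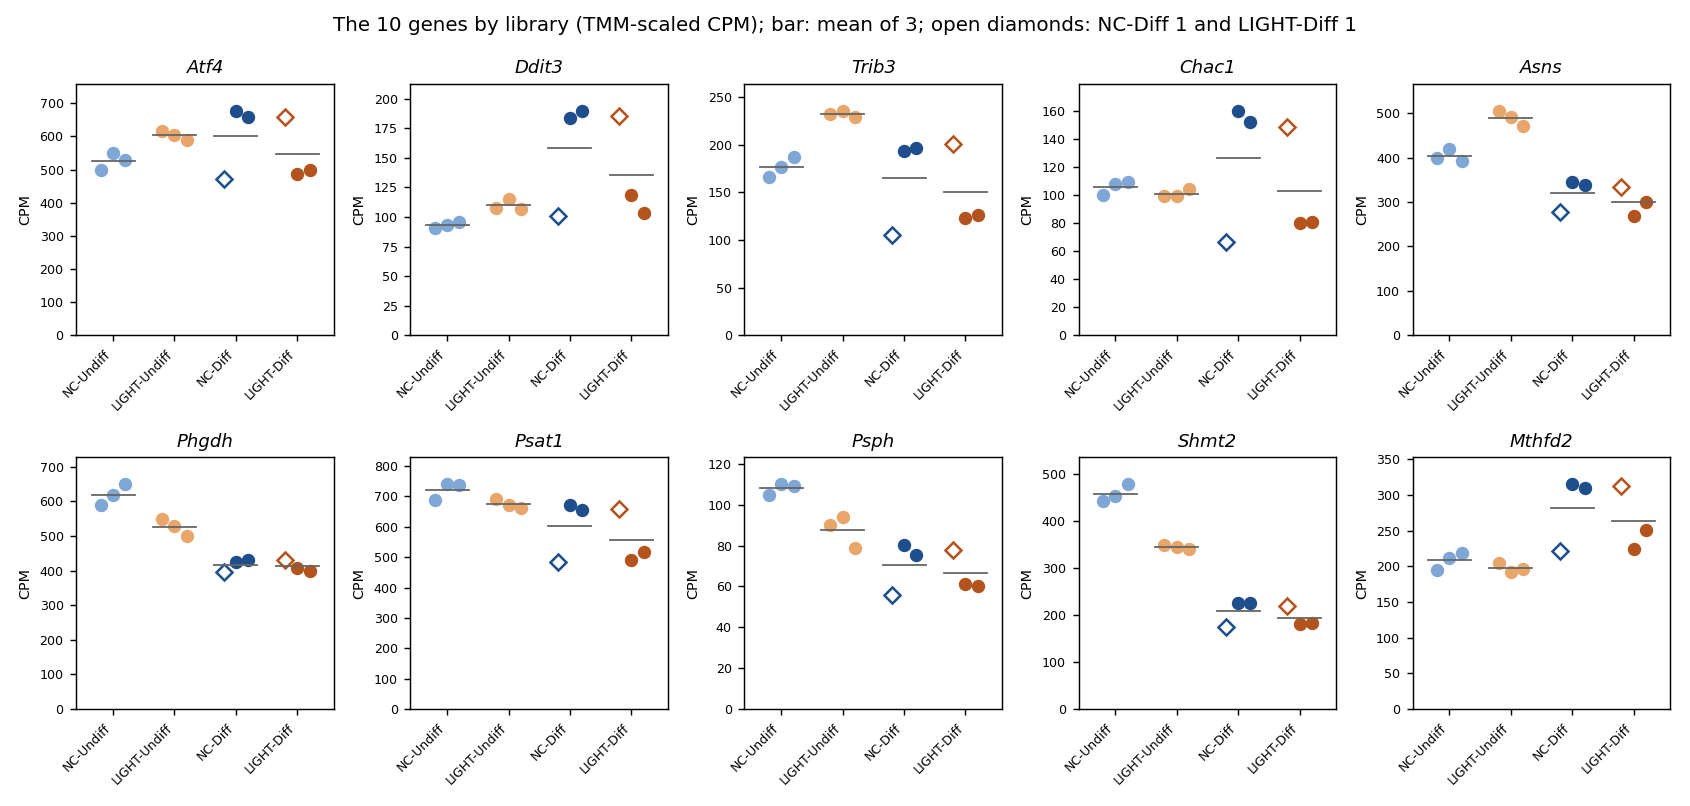
Level of each of the 10 genes in each of the 12 libraries, in TMM-scaled CPM on an axis from 0, by group; filled points are libraries whose Tnfsf14 fits their label, open diamonds are NC-Diff 1 and LIGHT-Diff 1, and the bar is the mean of all 3 libraries of the group as labelled. In the differentiated groups NC-Diff 1 lies nearer to LIGHT-Diff 2 and 3 and LIGHT-Diff 1 nearer to NC-Diff 2 and 3, as for Chac1 with 66.4 CPM in NC-Diff 1 and 148 CPM in LIGHT-Diff 1.

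In control cells the 10 genes did not share 1 direction. Ddit3 was higher and Shmt2, Phgdh, Psph and Asns were lower in differentiated than in undifferentiated cells, and Mthfd2, which works next to Shmt2 in the mitochondrial pathway, was higher. With the 12 libraries as labelled 2 of the 10 genes rose (Ddit3 and Mthfd2) and 4 fell, where 32.2% of all 12993 genes tested rose and 31.7% fell. In the 10 libraries 5 rose (Atf4, Ddit3, Trib3, Chac1 and Mthfd2), 4 fell and Psat1 did not pass, where 35.8% of the 13150 genes tested rose and 34.9% fell. The test was edgeR's quasi-likelihood test, and the threshold was 0.05 on the p adjusted over all genes tested by the Benjamini-Hochberg method. Log2 fold changes are followed by their standard error (SE). The median over the 10 genes was 0.03 on the log2 scale without the 2 libraries, against 0.01 over all genes tested. With library totals as the scale, which moved the median of all genes from 0.01 to -0.147 here, 40.1% of all calls were higher, against 50.6% with TMM scaling.

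Shmt2 had the largest change of the 10 genes as labelled. Its level was 444, 455 and 479 CPM in the undifferentiated control libraries and 175, 226 and 226 CPM in NC-Diff 1, 2 and 3. The groups did not overlap. The log2 fold change was -1.14 (SE 0.1, adjusted p = 7.37e-07) as labelled and -1.0 (SE 0.05, adjusted p = 8.77e-13) without the 2 libraries, a fold of 0.5. Mthfd2 went the other way, from 195, 211 and 219 CPM to 221, 315 and 310 CPM, again with no overlap, although NC-Diff 1 lay close to the highest undifferentiated library. Its log2 fold change was 0.43 (SE 0.14, adjusted p = 0.0139) as labelled and 0.61 (SE 0.06, adjusted p = 1.49e-08) without the 2 libraries; the first was lost without NC-Undiff 1, NC-Diff 2 or NC-Diff 3 (adjusted p 0.0511 to 0.0556). Of the 3 enzymes of serine synthesis Phgdh and Psph fell. Phgdh had 590, 619 and 649 CPM before and 397, 426 and 429 CPM after differentiation, without overlap. It changed by -0.57 (SE 0.07, adjusted p = 8.63e-06) on the log2 scale as labelled and by -0.51 (SE 0.06, adjusted p = 9.91e-08) without the 2 libraries. Psph had 105, 110 and 109 CPM before and 55.6, 80.4 and 75.2 CPM after. It changed by -0.61 (SE 0.13, adjusted p = 0.00121) as labelled and by -0.45 (SE 0.07, adjusted p = 8.24e-06) without the 2 libraries. Psat1 did not pass, at -0.26 as labelled (adjusted p = 0.0945) and -0.10 without the 2 libraries (adjusted p = 0.111). In the 10 libraries Psat1 passed with DESeq2, at -0.10 (adjusted p = 0.0435), with library totals as the scale, at -0.25 (adjusted p = 0.000199), and without NC-Undiff 1, at -0.13 (adjusted p = 0.0429). Asns changed by -0.33 (adjusted p = 0.00864) and -0.21 (adjusted p = 0.00277) in the 2 sets of libraries.

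The stress factors and effectors were higher in the differentiated control libraries other than NC-Diff 1. Ddit3 had 90.9, 93.2 and 95.9 CPM in the undifferentiated libraries and 101, 184 and 190 CPM in NC-Diff 1, 2 and 3. The 2 libraries whose Tnfsf14 matched the control label lay far above the undifferentiated ones, and NC-Diff 1 lay just above them. The log2 fold change of Ddit3 was 0.76 (SE 0.23, adjusted p = 0.0105) as labelled and 1.03 (SE 0.06, adjusted p = 6.9e-12) without the 2 libraries. Chac1 had 99.7, 108 and 109 CPM before, and 66.4, 160 and 152 CPM after differentiation, so NC-Diff 1 was below and the other 2 above every undifferentiated library. It passed only without the 2 libraries, at 0.59 (SE 0.05, adjusted p = 1.01e-08). Atf4 showed the same order, with 500, 551 and 530 CPM before and 471, 678 and 658 CPM after. Its log2 fold change was 0.19 (adjusted p = 0.239) as labelled and 0.36 (SE 0.05, adjusted p = 4.44e-06) without the 2 libraries. Trib3 changed by 0.17 (adjusted p = 0.00853) without the 2 libraries and by -0.10 (adjusted p = 0.711) as labelled. That call for Trib3 rested on the scaling and on 1 library: with library totals as the scale it was 0.01 (adjusted p = 0.883), and without NC-Diff 3 it was 0.14 (adjusted p = 0.0817).

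In LIGHT cells the same step went with lower levels of nearly all of these genes only without the 2 libraries. As labelled 1 of the 10 rose (Mthfd2) and 5 fell (Shmt2, Asns, Trib3, Phgdh and Psph), where 29.5% of all genes tested rose and 29.1% fell. In the 10 libraries 1 rose, 8 fell and Ddit3 did not pass, where 32.3% of all genes rose and 31.9% fell. The median over the 10 genes was then -0.40. The share that fell, 8 of 10, is to be read beside those 31.9%.

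Trib3 had the second largest change in LIGHT cells without the 2 libraries. It had 232, 236 and 229 CPM in the undifferentiated LIGHT libraries and 201, 123 and 126 CPM in LIGHT-Diff 1, 2 and 3, with no overlap. Its log2 fold change was -0.64 (SE 0.22, adjusted p = 0.0236) as labelled and -0.90 (SE 0.05, adjusted p = 1.77e-11) without the 2 libraries. Asns had 506, 492 and 472 CPM before and 334, 268 and 299 CPM after, and changed by -0.71 (SE 0.1, adjusted p = 3.84e-05) as labelled and -0.78 (SE 0.06, adjusted p = 4.69e-10) without the 2 libraries. Shmt2 had 349, 345 and 341 CPM before and 219, 181 and 183 CPM after, and changed by -0.83 (SE 0.1, adjusted p = 1.55e-05) as labelled and -0.92 (SE 0.05, adjusted p = 5.94e-12) without the 2 libraries. As labelled Psph changed by -0.40 (adjusted p = 0.0201) and Phgdh by -0.36 (adjusted p = 0.000537), and Psat1 did not pass, at -0.28 (adjusted p = 0.075). All 3 serine synthesis enzymes were lower without the 2 libraries, Psph by -0.52, Psat1 by -0.42 and Phgdh by -0.38 on the log2 scale. Atf4 changed by -0.29 (SE 0.05, adjusted p = 0.000113) and Chac1 by -0.32 (SE 0.06, adjusted p = 7.31e-05) there; as labelled they were at -0.14 (adjusted p = 0.405) and 0.03 (adjusted p = 0.941). Ddit3, with 108, 115 and 107 CPM before and 119 and 103 CPM in LIGHT-Diff 2 and 3, overlapped and had a log2 fold change of 0.02 (adjusted p = 0.8). Several calls with 12 libraries were lost without 1 library: Trib3 (adjusted p 0.0505 to 0.0907) without any LIGHT-Undiff library, LIGHT-Diff 2 or LIGHT-Diff 3, Psph (0.0572 to 0.0779) without LIGHT-Undiff 1 or 2 or LIGHT-Diff 2 or 3, and Mthfd2 (0.0523 to 0.0856) without LIGHT-Undiff 2 or 3 or LIGHT-Diff 1. Mthfd2 was higher in both sets of libraries, at 0.41 (adjusted p = 0.0195) as labelled and 0.28 (adjusted p = 0.000422) without the 2 libraries.

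**Figure D2:**
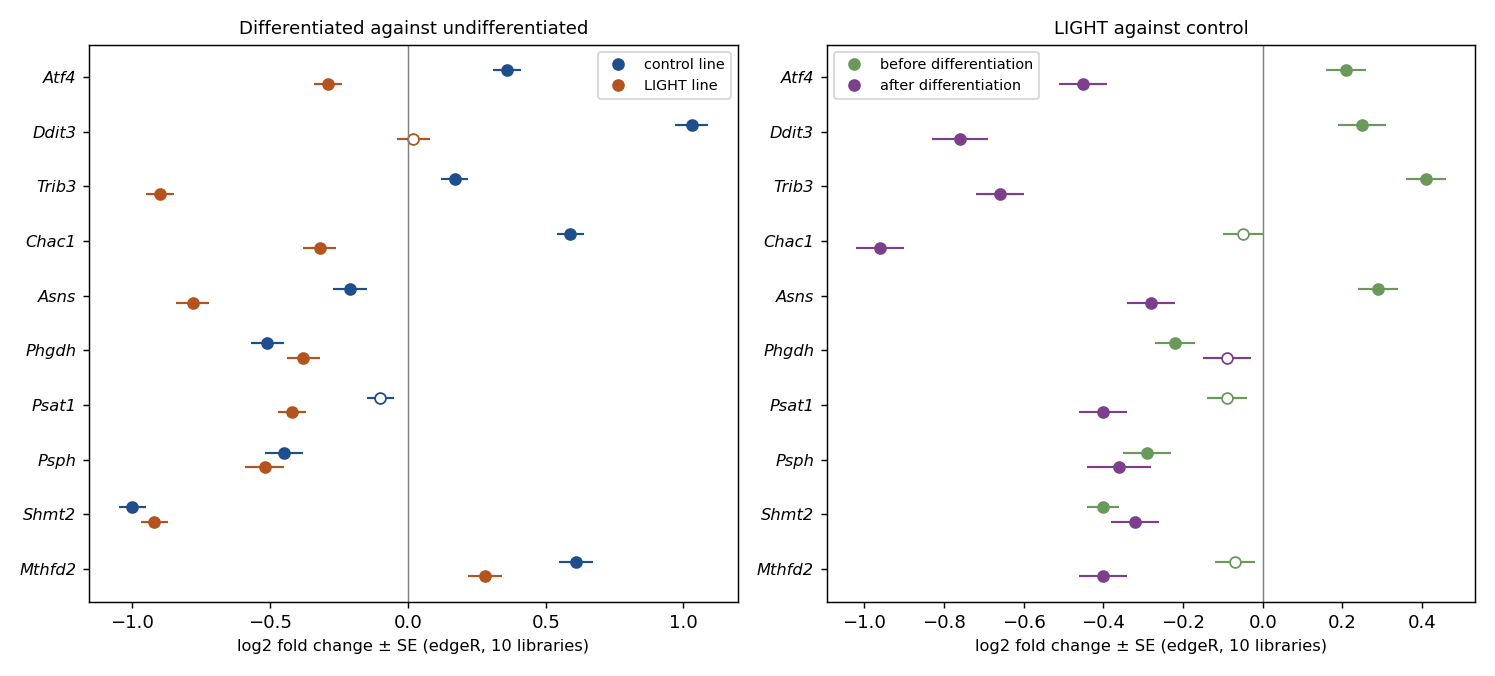
Log2 fold change (x axis, bars are 1 SE) of each of the 10 genes from the 10 libraries without NC-Diff 1 and LIGHT-Diff 1, on the left for differentiation in each line and on the right for LIGHT against control at each stage; filled points have an adjusted p under 0.05 and open points do not. After differentiation 9 of the 10 genes are filled on the negative side, and Phgdh is open.

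Before differentiation, where all 6 libraries had Tnfsf14 on the side of their label, LIGHT cells held more mRNA of the stress factors, Trib3 and Asns and less of Phgdh, Psph and Shmt2 than control cells. As labelled, with the spread shared over all 12 libraries, 1 gene was higher (Asns) and 2 were lower (Shmt2 and Phgdh), where 12.3% of all genes tested were higher and 14.2% lower. With the spread taken from the 10 libraries 4 were higher (Atf4, Ddit3, Trib3 and Asns), 3 were lower (Shmt2, Phgdh and Psph) and 3 did not pass, where 22.3% of all genes were higher and 22.1% lower. Both fits use the same 6 libraries for this difference, and in both sets 7 of the 10 genes had groups that did not overlap, as did 52.3% of all genes tested with 12 libraries and 52.1% with 10. The median over the 10 genes was -0.06 on the log2 scale in the 10-library fit.

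Trib3 had 166, 177 and 187 CPM in control and 232, 236 and 229 CPM in LIGHT libraries, a log2 difference of 0.41 (SE 0.05, adjusted p = 1.06e-06) with 10 libraries and 0.39 (SE 0.22, adjusted p = 0.2) with 12. Asns had 399, 419 and 393 CPM against 506, 492 and 472 CPM, and differed by 0.29 (adjusted p = 0.000123) with 10 libraries and 0.28 (adjusted p = 0.0462) with 12. Every LIGHT library was above every control library for these genes. Atf4 had 500, 551 and 530 CPM in control and 617, 604 and 589 CPM in LIGHT libraries and differed by 0.21 (adjusted p = 0.00169) with 10 libraries. Ddit3 differed by 0.25 (adjusted p = 0.00116) with 10 libraries; with 12, Atf4 (adjusted p = 0.325) and Ddit3 (adjusted p = 0.479) did not pass. Shmt2 went the other way, with 444, 455 and 479 CPM against 349, 345 and 341 CPM, a log2 difference of -0.40 (SE 0.04, adjusted p = 5.7e-07) with 10 libraries and -0.41 (SE 0.1, adjusted p = 0.00955) with 12. Psph had 105, 110 and 109 CPM against 90.0, 93.8 and 79.0 CPM and differed by -0.29 (adjusted p = 0.000656) with 10 libraries. Phgdh differed by -0.22 (adjusted p = 0.00109) with 10 libraries and -0.23 (adjusted p = 0.0206) with 12. Psat1, Mthfd2 and Chac1 did not pass in either fit. With 12 libraries the call of Asns was lost (adjusted p 0.0608 to 0.132) without any 1 of the 6 undifferentiated libraries or LIGHT-Diff 3, and that of Phgdh (0.0614 to 0.0786) without replicate 2 or 3 of either undifferentiated group. At this stage the summed level of 8 preadipocyte and fibroblast markers was 8286 to 9422 CPM in the control and 12546 to 13463 CPM in the LIGHT libraries. The markers did not move together: 4 were higher (Col3a1, at 1.10, the most) and 3 lower (Tagln, at -0.98, the most) in the 10-library fit. Their part in these differences was not tested.

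After differentiation the 2 sets of libraries differed. As labelled, none of the 10 genes passed: the log2 differences were between -0.29 and -0.02 with adjusted p from 0.913 to 0.964, every pair of groups overlapped, and 0% of all genes tested were called higher and 0% lower. In that comparison 523 of all genes, and 0 of the 10, had an unadjusted p under 0.05 in edgeR, and DESeq2 called 1 gene, Rn28s1, a ribosomal RNA. Without the 2 libraries 9 of the 10 were lower in LIGHT than in control cells, 0 were higher and Phgdh did not pass, where 14.6% of all genes were higher and 16.4% lower. All 10 had groups that did not overlap, but with 2 libraries in each this was also true of 66.7% of all genes tested. The median over the 10 genes was -0.40 on the log2 scale, against -0.01 over all genes tested. With library totals as the scale 2864 of all calls were higher and 1477 lower, against 1922 and 2157 with TMM, and 9 of the 10 genes were again called.

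The differences after differentiation were largest for the stress effectors. Chac1 had 160 and 152 CPM in NC-Diff 2 and 3 and 80.1 and 80.9 CPM in LIGHT-Diff 2 and 3, a log2 difference of -0.96 (SE 0.06, adjusted p = 1.33e-09) and a fold of 0.515. Ddit3 had 184 and 190 CPM against 119 and 103 CPM, and differed by -0.76 (SE 0.07, adjusted p = 7.45e-08). Trib3 had 194 and 197 CPM against 123 and 126 CPM, and differed by -0.66 (SE 0.06, adjusted p = 9.1e-08). In the libraries labelled NC-Diff 1 and LIGHT-Diff 1 Chac1 was at 66.4 and 148 CPM, Ddit3 at 101 and 185 CPM, and Trib3 at 105 and 201 CPM. For all 3 genes NC-Diff 1 was thus below LIGHT-Diff 2 and 3, and LIGHT-Diff 1 lay among or next to NC-Diff 2 and 3. Atf4 had 678 and 658 CPM in control and 487 and 498 CPM in LIGHT libraries, a log2 difference of -0.45 (SE 0.06, adjusted p = 1.11e-05).

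The amino acid and one-carbon enzymes differed less. Psat1 had 673 and 656 CPM in control and 491 and 518 CPM in LIGHT libraries, and differed by -0.40 (SE 0.06, adjusted p = 3.07e-05). Mthfd2 had 315 and 310 CPM against 225 and 251 CPM, and differed by -0.40 (SE 0.06, adjusted p = 9.93e-05). Psph, at -0.36 (adjusted p = 0.00138), and Shmt2, with 226 and 226 CPM against 181 and 183 CPM and a difference of -0.32 (adjusted p = 0.000228), were also lower. Asns had 346 and 339 CPM against 268 and 299 CPM and differed by -0.28 (SE 0.06, adjusted p = 0.00215); without LIGHT-Diff 2 it did not pass, at -0.20 (adjusted p = 0.0738). Phgdh, the entry enzyme of serine synthesis, had 426 and 429 CPM against 408 and 398 CPM. It did not overlap but also did not pass, at -0.09 (SE 0.06, adjusted p = 0.269). In these 4 libraries the summed level of 8 adipocyte markers was 14871 to 15738 CPM in control and 10291 to 10601 CPM in LIGHT cells, and that of 8 preadipocyte and fibroblast markers 8951 to 9356 CPM and 10733 to 10987 CPM. Of the adipocyte markers 6 were lower and 0 higher in LIGHT cells, and of the preadipocyte and fibroblast markers 4 were higher (Pdgfra, at 1.34, the most) and 2 lower (Ly6a, at -0.66, and Thy1, at -0.23). Their part in the differences was not tested, and in bulk RNA fewer cells of a type and less RNA per cell cannot be told apart.

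The interaction compares the difference between the lines after differentiation with that before it. As labelled 0 of the 10 genes passed in edgeR or in DESeq2, where edgeR called 5.08% of all genes tested positive and 4.26% negative. An unadjusted p under 0.05 was found for 3 of the 10 in each. It was found for 25.0% of all genes tested in edgeR and for 24.7% in DESeq2. In the 10 libraries 7 passed, all negative, where 14.9% of all genes were positive and 16.1% negative. With library totals, which moved the median of all genes by 0.101, 65.4% of all calls of this interaction were positive, against 48.2% with TMM, and Shmt2 (0.19, adjusted p = 0.0424) and Phgdh (0.23, adjusted p = 0.0196) then passed as positive. The 7 were Trib3 at -1.06 (SE 0.07, adjusted p = 6.48e-09), Ddit3 at -1.01 (SE 0.09, adjusted p = 7.52e-08), Chac1 at -0.91 (SE 0.08, adjusted p = 1.01e-07), Atf4 at -0.65 (SE 0.08, adjusted p = 2.76e-06), Asns at -0.57 (SE 0.08, adjusted p = 2.85e-05), Mthfd2 at -0.33 (SE 0.08, adjusted p = 0.00495) and Psat1 at -0.32 (SE 0.07, adjusted p = 0.003). Atf4, Ddit3, Trib3 and Asns were higher in LIGHT cells before and lower after differentiation, both past the threshold. Chac1, Mthfd2 and Psat1 were lower after it, and their differences before it did not pass. Shmt2, at 0.08 (adjusted p = 0.4), Phgdh, at 0.13 (adjusted p = 0.223), and Psph, at -0.07 (adjusted p = 0.626), did not pass. Mthfd2 rested on LIGHT-Diff 2, without which its interaction was -0.25 (adjusted p = 0.0623). These comparisons share groups of libraries, so their values are set side by side and are not independent of each other.

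The genes upstream of ATF4 and its partner factors were followed in a list of 15 genes, all tested. After differentiation, without the 2 libraries, 2 were higher and 7 lower in LIGHT than in control cells, and in the interaction 0 were positive and 7 negative. Of all genes tested 14.6% were higher and 16.4% lower after differentiation, and 14.9% had a positive and 16.1% a negative interaction. Of the 4 kinases of eIF2, Eif2ak4 (GCN2, activated in amino acid shortage) was lower at -0.28 (adjusted p = 0.0237) and Eif2ak2 (PKR, activated by double-stranded RNA) at -0.22 (adjusted p = 0.0472), while Eif2ak3 (PERK, of the endoplasmic reticulum) at 0.07 (adjusted p = 0.587) and Eif2ak1 (HRI, the heme-regulated kinase) at 0.20 (adjusted p = 0.0932) did not pass. Atf3, a factor induced downstream of ATF4, had a mean of 22.0 ± 3.28 CPM (SD, n = 2) in control and 10.7 ± 2.08 CPM in LIGHT cells, a log2 difference of -1.05 (adjusted p = 3.3e-05). Ppp1r15a (GADD34, which brings a phosphatase to eIF2) was higher in LIGHT cells before differentiation, at 0.62, and lower after it, at -0.78, with an interaction of -1.40; as labelled none of these 3 passed, at 0.61 (adjusted p = 0.101), -0.17 (adjusted p = 0.924) and -0.78 (adjusted p = 0.207). Nupr1, a stress-induced nuclear protein, rose in both lines, from 43.7 ± 3.24 to 186 ± 9.7 CPM in control and from 41.8 ± 1.18 to 111 ± 0.503 CPM in LIGHT cells, and its interaction was -0.70. As labelled 0 of the 15 passed between the differentiated lines, and in the interaction 1 was negative, Atf5 at -0.44, as were 4.26% of all genes.

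The list of other known ATF4 targets was counted in the same way. Of 20 listed 18 were tested; Stc2 and Cbs were too low. Without the 2 libraries 13 rose and 2 fell on differentiation in control cells, and 6 rose and 11 fell in LIGHT cells. Of all genes 35.8% rose and 34.9% fell in control and 32.3% and 31.9% in LIGHT cells. Between the lines 13 were higher and 1 lower in LIGHT cells before differentiation, and 1 was higher and 13 lower after it. Of all genes 22.3% were higher and 22.1% lower before, and 14.6% and 16.4% after it. The median log2 difference was 0.35 before and -0.44 after differentiation, and 14 of the 18 had a negative interaction, 0 a positive one, against 16.1% and 14.9% of all genes. Gdf15, a secreted stress hormone, had 10.3 ± 0.655 CPM (SD, n = 2) in control and 4.29 ± 0.206 CPM in LIGHT cells after differentiation, a log2 difference of -1.27. Ddit4 (REDD1, an inhibitor of mTORC1) went from 107 ± 4.64 to 247 ± 3.58 CPM in control cells and from 151 ± 8.76 to 131 ± 6.95 CPM in LIGHT cells, with an interaction of -1.43. Pck2, the mitochondrial phosphoenolpyruvate carboxykinase, had 342 ± 10.0 and 448 ± 6.44 CPM in control and 395 ± 16.1 and 247 ± 2.65 CPM in LIGHT cells before and after differentiation, with an interaction of -1.08. Gadd45a, a growth arrest gene, was 0.72 higher in LIGHT cells before differentiation on the log2 scale, and its interaction was -1.40. As labelled the interactions of Gdf15 (adjusted p = 0.836), Ddit4 (0.212), Pck2 (0.497) and Gadd45a (0.0545) did not pass. As labelled 7 were higher and 1 lower before differentiation, 0 passed after it, and 3 had a negative and 0 a positive interaction. Of all genes 12.3% were then higher and 14.2% lower before, 0% passed after it, and 4.26% had a negative and 5.08% a positive interaction.

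**Figure D3:**
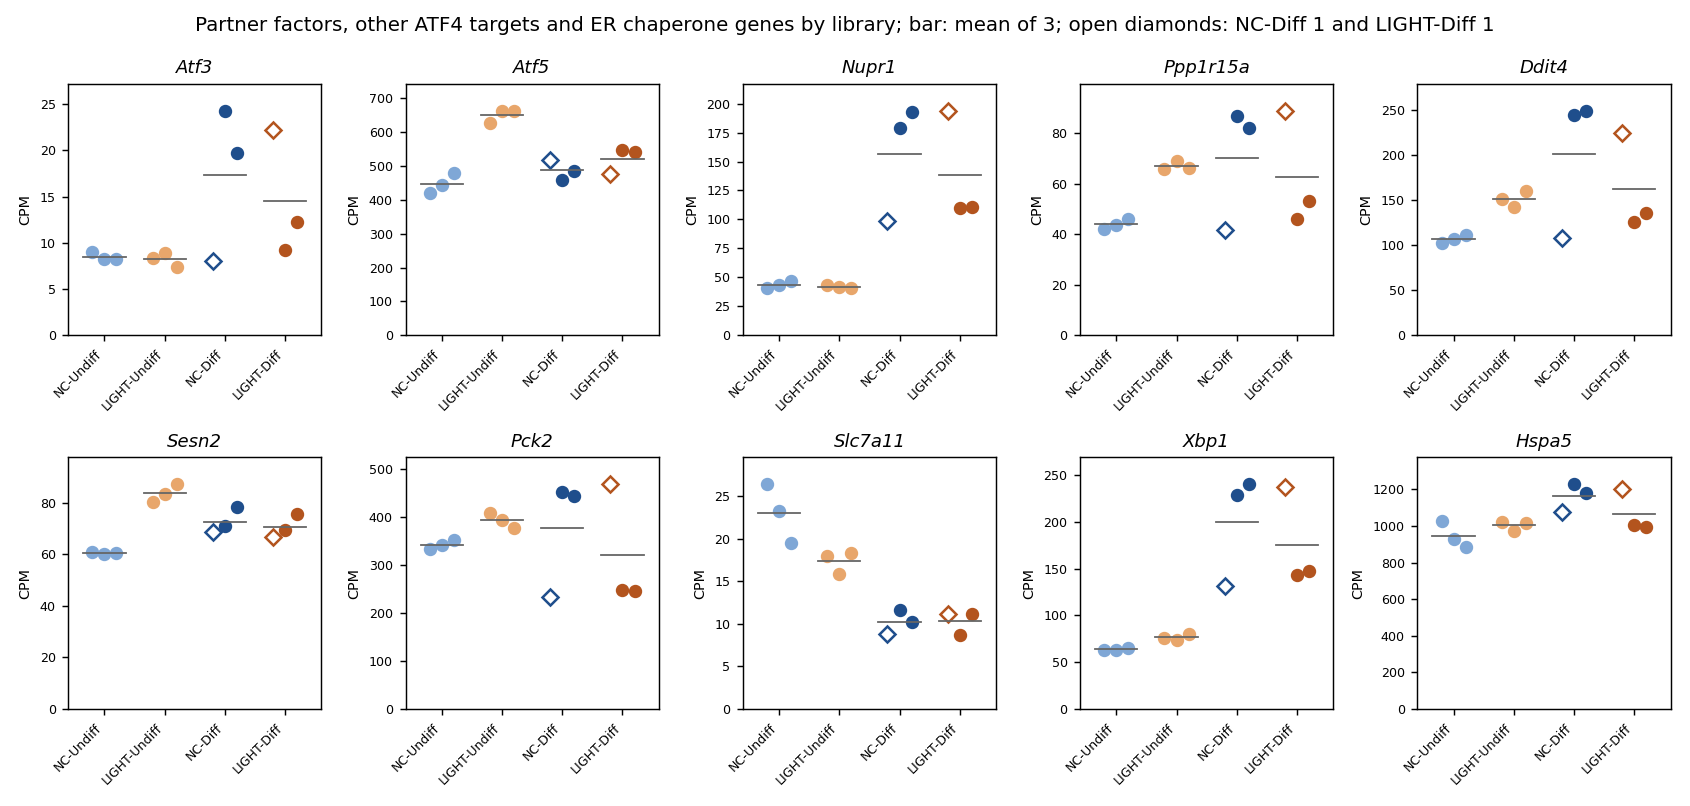
Level of 10 further genes (partner factors, other ATF4 targets, the transporter Slc7a11 and genes of the unfolded protein response) in each of the 12 libraries, in TMM-scaled CPM on an axis from 0, with open diamonds for NC-Diff 1 and LIGHT-Diff 1 and bars at the mean of all 3 libraries of a group as labelled; the genes drawn were picked after their values were seen. Ddit4 and Pck2 are higher in NC-Diff 2 and 3 than in LIGHT-Diff 2 and 3, with means over these of 247 and 131 CPM and of 448 and 247 CPM.

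Amino acid transporters under ATF4 control mostly fell on differentiation. Of 10 tested, 1 rose, 8 fell and Slc7a3 did not pass in each line, in both sets of libraries, where 29.1% to 34.9% of all genes fell and 29.5% to 35.8% rose. Slc1a5, a glutamine carrier, rose, from 157 ± 11.2 to 518 ± 13.3 CPM in control and from 199 ± 8.57 to 435 ± 19.1 CPM in LIGHT cells without the 2 libraries. Slc7a5, the large neutral amino acid exchanger, was higher in LIGHT cells before differentiation (541 ± 18.1 against 361 ± 25.5 CPM, log2 0.60) and did not pass after it (256 ± 0.738 against 258 ± 2.87 CPM, log2 -0.02, adjusted p = 0.862). Slc6a9, a glycine transporter, was 0.47 higher before differentiation, and both it (-0.57) and Slc7a5 (-0.62) had a negative interaction without the 2 libraries. As labelled both also passed, Slc6a9 at -0.54 and Slc7a5 at -0.64. Without the 2 libraries 2 of the 10 were lower in LIGHT cells after differentiation, Slc1a5 at -0.26 and Slc38a1 at -1.54, as were 16.4% of all genes. Slc38a1, a neutral amino acid transporter, had a mean of only 1.41 ± 0.316 CPM in control and 0.469 ± 0.233 CPM in LIGHT cells there.

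Folate-dependent one-carbon metabolism runs in mitochondria and in the cytosol. After differentiation, without the 2 libraries, 4 of the mitochondrial enzymes were lower in LIGHT cells: beside Shmt2 (-0.32) and Mthfd2 (-0.40), Mthfd1l, which releases formate, was at -0.57 and Aldh1l2, which oxidises formyl-tetrahydrofolate, at -0.96. Mthfd2l, a relative of Mthfd2, did not pass, at -0.11 (adjusted p = 0.603). Of the cytosolic enzymes Shmt1, the counterpart of Shmt2, was higher at 0.33 (adjusted p = 0.00791) and Tyms, thymidylate synthase, at 0.34. Mthfd1, the trifunctional cytosolic enzyme, was lower at -0.18 (adjusted p = 0.0497). Before differentiation Shmt1 and Mthfd1 were lower in LIGHT cells, at -0.53 and -0.68, so the interaction of Shmt1 was 0.86 and that of Mthfd1 0.50, both past the threshold. As labelled the interactions of Shmt1 (0.68) and Mthfd1 (0.59) also passed. In the list of 25 other folate and one-carbon genes 24 were tested. In the 10 libraries 1 was higher and 14 lower before differentiation, 2 higher and 5 lower after it, and 9 had a positive and 3 a negative interaction. The shares of all genes were 22.3% and 22.1%, 14.6% and 16.4%, and 14.9% and 16.1%. As labelled 0 of the 24 were higher and 0 lower after differentiation, as were 0% of all genes. Shmt1 was then at 0.13 (adjusted p = 0.913). On differentiation Sfxn1, the mitochondrial serine carrier, rose in both lines, from 53.8 ± 0.887 to 138 ± 4.0 CPM in control and from 43.5 ± 0.995 to 118 ± 3.4 CPM in LIGHT cells, while Shmt2 fell in both.

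**Figure D4:**
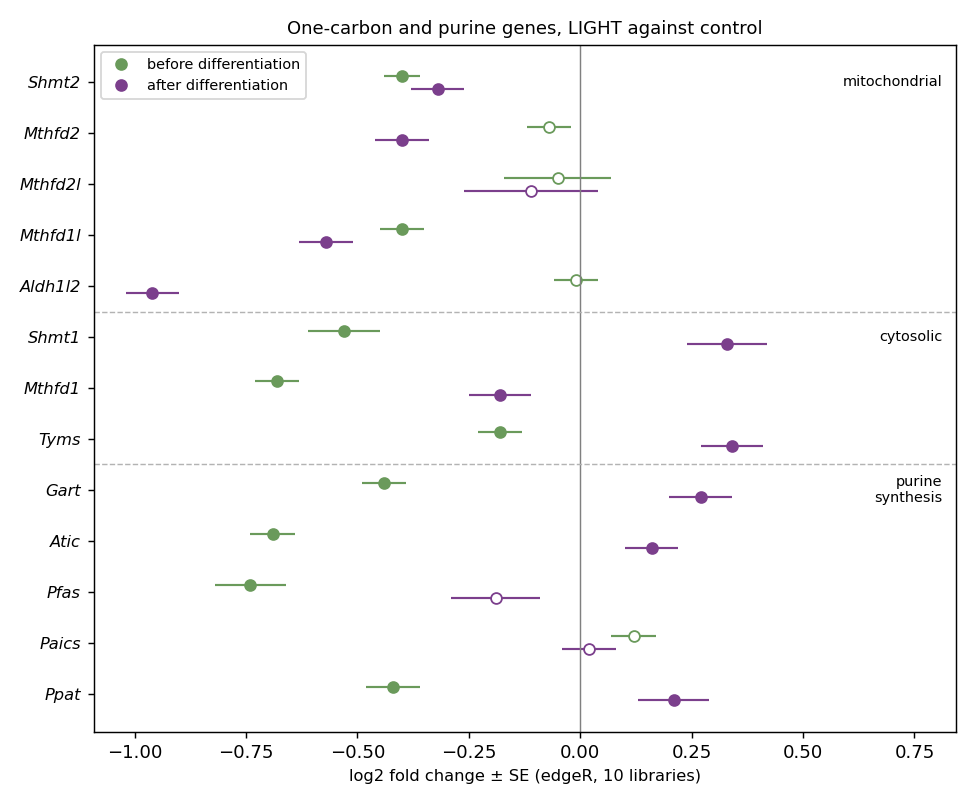
Log2 difference of LIGHT against control cells (x axis, bars are 1 SE) for mitochondrial one-carbon, cytosolic one-carbon and purine synthesis genes, before and after differentiation, from the 10 libraries; filled points have an adjusted p under 0.05, open points do not, and dashed lines part the 3 groups. Shmt1 goes from -0.53 to 0.33, and Aldh1l2 from -0.01 to -0.96.

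De novo purine synthesis, which takes 2 of its carbons from formyl-tetrahydrofolate, was followed in 8 genes. In control cells 1 rose and 7 fell on differentiation, and in LIGHT cells 1 rose and 4 fell, in both sets of libraries; 31.7% to 34.9% of all genes fell in control and 29.1% to 31.9% in LIGHT cells. Atic, which uses the second formyl group, had 233 ± 9.34 CPM in undifferentiated control and 143 ± 2.51 CPM in undifferentiated LIGHT cells, and 101 ± 0.248 and 114 ± 3.23 CPM after differentiation without the 2 libraries. Its log2 difference was -0.69 before and 0.16 (adjusted p = 0.0391) after, with an interaction of 0.85, and 0.75 as labelled. Gart, which uses the first, was at -0.44 before and 0.27 (adjusted p = 0.00349) after, with an interaction of 0.72. As labelled the interaction of Gart did not pass. Of the 8 genes 5 were lower and 0 higher in LIGHT cells before differentiation, and 4 were higher and 1 lower after it, beside 22.1% of all genes lower before and 14.6% higher after. In the interaction 4 were positive and 1 negative without the 2 libraries, where 14.9% of all genes were positive and 16.1% negative. As labelled 3 were positive and 0 negative, where 5.08% and 4.26% of all genes were, and 0 of the 8 passed between the differentiated lines.

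The branch of the unfolded protein response under XBP1 and ATF6 was compared in 15 genes, and tRNA synthetases listed as inducible by ATF4 in 12. After differentiation, without the 2 libraries, 6 of the 15 were lower and 0 higher in LIGHT cells, where 16.4% of all genes were lower and 14.6% higher. Among them was Xbp1 itself, which rose from 63.7 ± 1.29 to 235 ± 7.7 CPM in control and from 76.6 ± 3.65 to 145 ± 2.3 CPM in LIGHT cells, with a difference of -0.70 and an interaction of -0.98 (as labelled -0.46, adjusted p = 0.387). Hsp90b1 (GRP94, a chaperone of the endoplasmic reticulum) was lower at -0.59 and Sel1l, of the degradation machinery there, at -0.40, while the difference of Dnajb9 (ERdj4), a target of XBP1, did not pass. On differentiation in control cells 10 of the 15 rose and 2 fell, where 35.8% of all genes rose and 34.9% fell, and in LIGHT cells 6 rose and 2 fell, where 32.3% rose and 31.9% fell. Of the 12 tRNA synthetase genes 10 were lower and 0 higher after differentiation, beside the same 16.4% and 14.6% of all genes, with the largest differences for Gars at -0.35, Iars at -0.34 and Mars at -0.31. In the same 10 libraries 4 were higher and 5 lower before differentiation, beside 22.3% and 22.1% of all genes. In the interaction 5 were negative and 0 positive, beside 16.1% and 14.9% of all genes. On differentiation 2 rose and 8 fell in control cells, and 0 rose and 11 fell in LIGHT cells, beside the shares of all genes given above for that step. As labelled 0 genes of either list passed after differentiation.

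Across the libraries the 10 genes fell into more than one pattern. These are correlations of log2 CPM over 12 libraries that share group and stage, given as descriptions. Phgdh and Shmt2 had a Pearson r of 0.99, Psph and Shmt2 0.95, and Phgdh and Psph 0.93. Ddit3 and Mthfd2 had 0.89 and Atf4 and Chac1 0.88. Atf4 and Ddit3 had 0.77, Ddit3 and Chac1 0.77, Chac1 and Mthfd2 0.66 and Atf4 and Mthfd2 0.54. Between Phgdh or Shmt2 and Atf4, Ddit3, Chac1 or Mthfd2 the values were lower. They were -0.57 for Shmt2 and Mthfd2, -0.59 for Phgdh and Mthfd2, -0.02 for Atf4 and Phgdh and 0.15 for Chac1 and Shmt2. Trib3 had 0.79 with Atf4 and 0.66 with Chac1, but 0.27 with Ddit3 and -0.03 with Mthfd2. Its r was 0.85 with Asns, 0.84 with Psat1, 0.66 with Psph, 0.58 with Shmt2 and 0.5 with Phgdh. Asns had 0.8 with Shmt2 and 0.74 with Phgdh, and Psat1 had 0.83 and 0.79. Without the 2 libraries the r of Phgdh and Shmt2 was again 0.99, that of Ddit3 and Mthfd2 0.85 and that of Shmt2 and Mthfd2 -0.63.

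Over all 9989 other tested genes with a symbol and a mean of at least 5 CPM, the gene most like each member by the same measure was found. For Shmt2 it was Tars, a threonyl-tRNA synthetase, with r = 0.996 over the 12 libraries and 0.995 over 10. Tars had 417 ± 23.3 and 345 ± 8.97 CPM in undifferentiated control and LIGHT cells, and 261 ± 2.86 and 229 ± 0.938 CPM after differentiation without the 2 libraries. For Phgdh it was Snrpa1 (0.991), for Psph Aimp1 (0.987), a scaffold protein of the tRNA synthetase complex, for Trib3 Tbrg1 (0.985), for Psat1 Zc3h14 (0.985) and for Mthfd2 Fam107b (0.985). For Ddit3 it was Pfkp (0.98), the platelet phosphofructokinase, for Asns Btf3 (0.978), for Atf4 Pafah1b3 (0.973) and for Chac1 Thap4 (0.951). Chac1 had the least close match of the 10 genes.

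The labelled cell type was compared with its markers. The summed level of 8 adipocyte markers was 39.8 to 60.6 CPM over the 6 undifferentiated libraries and 10284 to 15738 CPM over the 6 differentiated ones, and all 8 rose in both lines. The sum of 8 preadipocyte and fibroblast markers was not lower after differentiation in control cells, at 8286 to 9422 CPM before and 8951 to 12411 CPM after it, and was 12546 to 13463 and 9403 to 10987 CPM in LIGHT cells. One by one, 1 of these 8 rose and 5 fell in control cells in both sets of libraries. In LIGHT cells 1 rose and 5 fell as labelled, and 2 rose and 6 fell without the 2 libraries. Summed markers of other cell types reached at most 50.8 CPM, near the adipocyte sum before differentiation. Of 8 leukocyte markers 5 were listed, with a sum of 1.94 to 4.61 CPM, with Emr1 and Cd3e among those at 0. Of 8 endothelial and epithelial markers 7 were listed, with a sum of 0.698 to 11.6 CPM and Epcam at 0. Of 8 muscle, bone and cartilage markers 6 were listed, with 36.6 to 50.8 CPM and Myod1 and Acan at 0. As labelled Des rose in both lines, at 1.61 in control and 1.57 in LIGHT cells on the log2 scale. Runx2 fell in both, at -0.75 and -0.65. The 3 endothelial and epithelial markers tested rose in both lines, where 32.2% of all genes rose in control and 29.5% in LIGHT cells.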

How the data were processed

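The authors deposited 1 table for each of the 12 libraries with, per the file headers, a gene number, a symbol, transcript names, a length, expected counts and FPKM. Expected counts, as deposited, are estimates in which reads shared between transcripts or genes are split; 83.6% to 84.5% of the listed values were whole as printed. The FPKM that the authors deposited are relative to gene length and library total, and were used only to order genes by level. Libraries were made from TRIzol-extracted total RNA with standard Illumina protocols, per the labels. The submitters' processing notes name the build mm8. The aligner, the counting program and the strand setting were not given in the sources used here. Phgdh, and Atf4 in NC-Diff 1 (7577.97), had fractional counts, so some of their reads were shared. Psph included 1 transcript that is not of RefSeq. A gene missing from a library's table was read as 0.

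Rounded expected counts were fitted in edgeR 4.0.16, under R 4.3.3, by the quasi-likelihood method with a coefficient per group, after filterByExpr (minimum count 10) and TMM scaling. The 888 gene models without a symbol (4.23% to 5.24% of the counts) stayed in the fit. Standard errors were derived from edgeR's F (the size of the log2 fold change over the root of F). CPM are TMM-scaled, and correlations used log2 CPM with a prior count of 2. The floor of 3 counts covers counting error only, PCR copies being no independent molecules. The steps were tested on simulated counts.

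The 10 members and the lists were chosen with earlier results of these data known. Named beside the members are, per comparison, up to 3 called genes of each list with a mean of at least 5 CPM, by the size of the change, the eIF2 kinases, Shmt1, Mthfd2l, the gene most like each member, and Tnfsf14. Tyms, Mthfd1l, Sfxn1, Dnajb9 and the genes drawn in figures were also named where the rule did not pick them, after their values were seen. Some genes of the lists are not reported here by name. Other settings tried were library totals, RLE scaling, DESeq2 1.42.0, other filters, fits of only the 2 groups compared, leaving out each library, and a replicate block; those on the 10 libraries were, apart from the 10-library fit itself, added after the data were seen.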

Additional observations from a re-analysis of the deposited data

Results flagged for a closer look

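The difference between the lines changed with stage, by edgeR's test of the interaction over the 10 libraries (Benjamini-Hochberg adjusted p under 0.05), for 7 of the 10 genes: Trib3 at -1.06, Ddit3 at -1.01, Chac1 at -0.91, Atf4 at -0.65, Asns at -0.57, Mthfd2 at -0.33 and Psat1 at -0.32 on the log2 scale. In the 12 libraries as labelled 0 of the 10 passed. The 10-library values rest on 2 differentiated libraries in each line.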

How the results depend on the processing

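Leaving out NC-Diff 1 and LIGHT-Diff 1 raised the calls between the lines before differentiation to 5836 genes with 7 of the 10 members, after it to 4079 with 9 (DESeq2 on 12 libraries called 1 gene), and in the interaction to 4077 with 7. It turned the sign of Trib3 in control differentiation (0.17), Chac1 in LIGHT differentiation (-0.32), Eif2ak3 after differentiation (0.07) and the interaction of Psph (-0.07). Fitting only the 2 groups before differentiation called 5601 genes with 7 members. With library totals the signs turned, none called in either fit, of Eif2ak1 (-0.05) and Shmt1 (-0.05) in control differentiation, Chac1 in LIGHT differentiation (-0.06), Phgdh after differentiation (0.01) and the interactions of Psat1 (0.01), Mthfd2 (0.02) and Eif2ak4 (0.03), and, over 10 libraries, of Ddit3 in LIGHT differentiation (-0.04) and the interaction of Psph (0.03). Leaving out each library in turn gave 2238 to 4280 genes and 1 to 5 members before differentiation, 3 to 7 members in LIGHT differentiation, 675 to 1868 genes and 0 to 3 members in the interaction, and, over 10 libraries, 2568 to 4295 genes after differentiation, the lowest without LIGHT-Diff 2. It turned small values about 0: LIGHT differentiation of Chac1 (-0.32 to 0.18), Mthfd2l (-0.10 to 0.21) and, over 10 libraries, Ddit3 (-0.08 to 0.11); control differentiation of Trib3 (-0.22 to 0.16); Eif2ak1 before differentiation (-0.12 to 0.02); after it Eif2ak3 (-0.13 to 0.05), Mthfd2 (-0.25 to 0.00), Phgdh (-0.06 to 0.00), Psph (-0.23 to 0.02) and Trib3 (-0.42 to 0.00); and the interactions of Mthfd2 (-0.18 to 0.08), Psat1 (-0.18 to 0.06) and Eif2ak4 (-0.13 to 0.10). Apart from the libraries and groups left out, the cause was not tested. Same-numbered libraries did not deviate together (correlations -0.62 to 0.10). These values cannot exclude a pairing, since NC-Diff 1 and LIGHT-Diff 1 shift the means from which the differentiated libraries deviate. With the replicate number as a block the interaction called 747 genes. Asns before differentiation (0.28, adjusted p = 0.0897) and Trib3 in LIGHT differentiation (-0.63, adjusted p = 0.0501) no longer passed in that fit. No other call of a member changed. With 2 or 3 libraries a group, smaller differences could not be detected.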
